A study of Mus musculus with 16 samples.

Results

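Differentiation of pmi28 mouse muscle cells was followed in a line that carries a doxycycline-inducible GFP transgene and no msx2 transgene. The comparison set 3 libraries of uninduced isolated myotubes against 2 libraries of uninduced myoblasts of that line, 5 of the 16 libraries in the series. Every gene with a symbol was taken, 19799 in all, and 16245 of them had enough reads to be tested. The remaining 11 libraries were the msx2 line in the same states and induced myotubes of both lines. The msx2 line carries inducible msx2 and GFP, and its uninduced myoblasts (2 libraries) and uninduced myotubes (3 libraries) served as the second line.

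Myoblasts are committed muscle precursors that divide, leave the cell cycle and fuse into multinucleated myotubes. The MyoD family of transcription factors drives this step together with MEF2 proteins. The myotube then assembles sarcomeres, the contractile units made of myosin thick filaments, actin thin filaments and Z-discs, and a membrane system that couples excitation to calcium release.

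The labels give 1 culture protocol for all samples, worded for cells with msx2 and GFP transgenes, and none for the GFP-only line alone. By that protocol myoblasts were kept in 20% fetal bovine serum, and confluent cultures were moved to 10% horse serum for 3 days. Myotubes were then freed with Accutase, caught on a nylon mesh and kept for 3 days with AraC, a cytostatic drug that acts on dividing cells, before fresh medium was given. The labels do not state the medium or the time at harvest of uninduced myotubes, whether the line is a single clone, or whether replicates came from separate cultures. P-values therefore measure spread between libraries, which may be technical. That spread was estimated within the groups of all 16 libraries, not from these 5 alone. Differentiation, isolation, serum, AraC and time in culture changed together and cannot be told apart. In RNA from many cells together, fewer cells of a type and less RNA per cell cannot be told apart either.

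Reads in genes with a symbol numbered 23637685 and 23876573 in the myoblast libraries and 19772048, 26466505 and 33070931 in the myotube libraries. The number of such genes with at least 1 read was 16821 and 16912 in myoblasts and 18009, 18462 and 18294 in myotubes. The myoblast libraries differed by 1.95 times the variance of read counting alone (chi-square per degree of freedom), and pairs of myotube libraries by 12.8 to 16.6 times. The median gene had an SD of 0.06 log2 in myoblasts (n = 2) and 0.12 log2 in myotubes (n = 3). Levels below are CPM, read counts relative to the scaled library total, in the order of the replicates, and differences are log2 fold changes of myotubes over myoblasts ± SE. Msx2 stood at 1.59 and 1.28 CPM in the myoblast libraries and 1.11, 1.03 and 1.18 CPM in the myotube libraries. GFP itself was not analysed here.

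Most genes differed between the states. Of 16245 genes, 6460 rose (39.8%) and 6156 fell (37.9%) at an adjusted p under 0.05 (edgeR's quasi-likelihood test with Benjamini-Hochberg adjustment, as for every adjusted p below). The median over all genes was 0.06 log2. Counts of gene list members below are to be read against these shares. Large rises outnumbered large falls. A change of at least 2-fold was called upward in 4029 genes (24.8%) and downward in 2574 (15.8%). At least 16-fold the numbers were 582 (3.58%) and 94 (0.579%), and at least 64-fold 234 (1.44%) and 2 (0.0123%). Libraries of the states did not overlap in 7219 genes higher in myotubes (44.4%) and 6855 lower in them (42.2%). With only genes above 5 CPM in at least 2 libraries, 2564 genes rose at least 2-fold and 1880 fell.

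**Figure D1:**
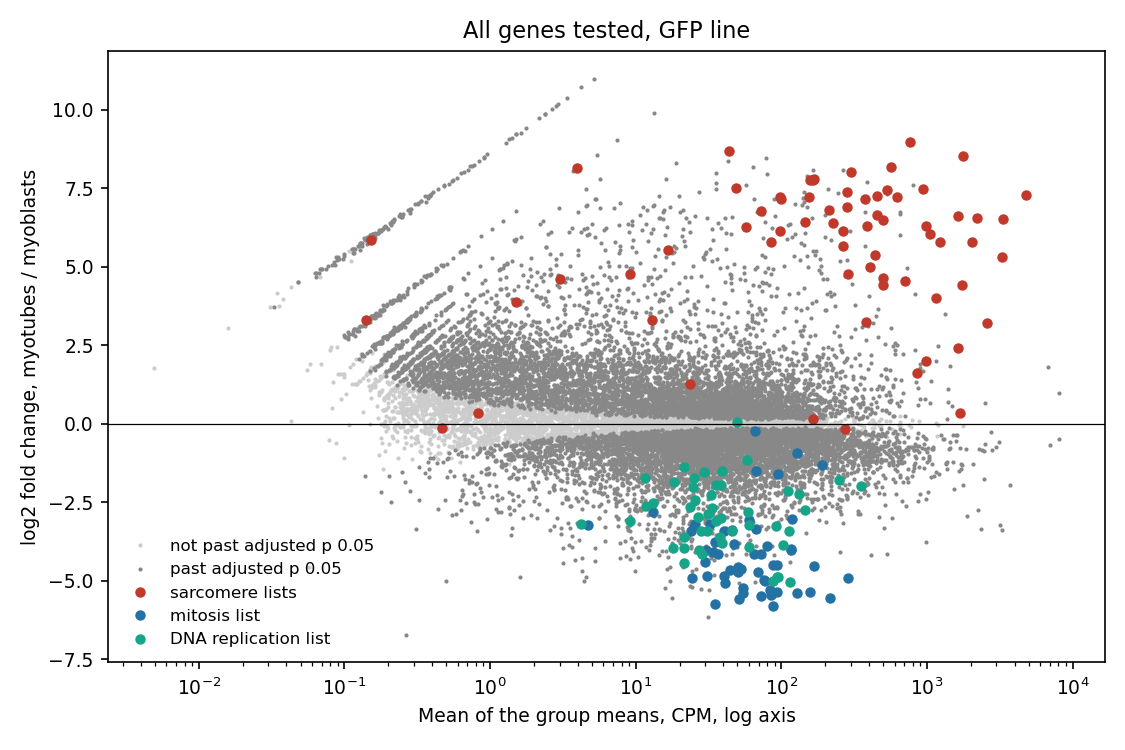
Each point is 1 of the 16245 genes tested, with the mean of the group means in CPM on a log axis and the log2 fold change of GFP-line myotubes over myoblasts on the other. Sarcomere genes (red) lie above 0 but for Tpm3 at -0.18 and Tnni3 at -0.15, while DNA replication (green) and mitosis genes (blue) lie below 0 but for Pola2 at 0.06.

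The muscle transcription factors split. Of 22 tested, 9 rose (40.9%) and 11 fell (50%), against 39.8% and 37.9% of all genes. The median was -0.22 log2. Mef2c, a MEF2 factor that activates late muscle genes, was at 8.72 and 7.62 CPM in myoblasts and 1872, 1485 and 1406 CPM in myotubes. Its myotube libraries stood far above both myoblast libraries, by 7.60 ± 0.24 log2 (adjusted p = 2.15e-12). Myog, the MyoD family member needed for terminal differentiation, was at 43.7 and 47.02 CPM in myoblasts and 711, 797 and 766 CPM in myotubes. The groups were widely apart, by 4.06 ± 0.10 log2 (adjusted p = 3.84e-14). Myod1, which commits cells to muscle, was at 177 and 183 CPM in myoblasts and 270.2, 252 and 262 CPM in myotubes. It was already high in myoblasts, did not overlap between the groups, and rose by only 0.54 ± 0.08 log2 (adjusted p = 1.36e-05).

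The other MyoD family members went opposite ways. Myf5, the early myoblast member, was at 73.7 and 79.3 CPM in myoblasts and 8.04, 6.09 and 7.27 CPM in myotubes. Every myotube library was lower, and it fell by 3.43 ± 0.15 log2 (adjusted p = 1.04e-11). Myf6, the member of mature fibres, had 0.746 and 0.410 CPM in myoblasts and 26.3, 13.2 and 15.1 CPM in myotubes. It was under 1 CPM in both myoblast libraries, did not overlap, and rose by 4.96 ± 0.63 log2 (adjusted p = 9.83e-06). Myotube replicate 1 held the most Myf6.

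Among MEF2 partners and cofactors, Mef2a rose by 2.24 ± 0.11 and Mef2d by 1.44 ± 0.10 log2. Smyd1, a muscle methyltransferase needed for myofibril assembly, was at 20.2 and 20.4 CPM in myoblasts and 557, 474 and 545 CPM in myotubes, a rise of 4.69 ± 0.16 log2. Tead4, a TEAD factor induced in differentiating myoblasts, rose by 2.99 ± 0.12, while its relative Tead1 fell by 0.35 ± 0.06 log2. The E proteins, which pair with MyoD family members on DNA, fell, Tcf3 with -2.02 ± 0.08 and Tcf12 with -0.84 ± 0.06 log2. Srf, the activator of actin genes through CArG boxes, was at 186 and 188 CPM in myoblasts and 61.5, 75.4 and 73.5 CPM in myotubes. Both myoblast libraries lay above every myotube library, and it fell by 1.41 ± 0.10 log2. Six4, Eya1, Pitx3, Nfix and Nfic also fell, by 0.34 to 0.76 log2, and Eya4 rose by 0.84 ± 0.14. The Nfix fall lost its call with upper-quartile scaling and with the filter of 5 CPM (adjusted p = 0.0601 and 0.0883). Eya2 (0.04 ± 0.09 log2, adjusted p = 0.663) did not pass, though it was called with that filter (0.21 log2, adjusted p = 0.0304).

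**Figure D2:**
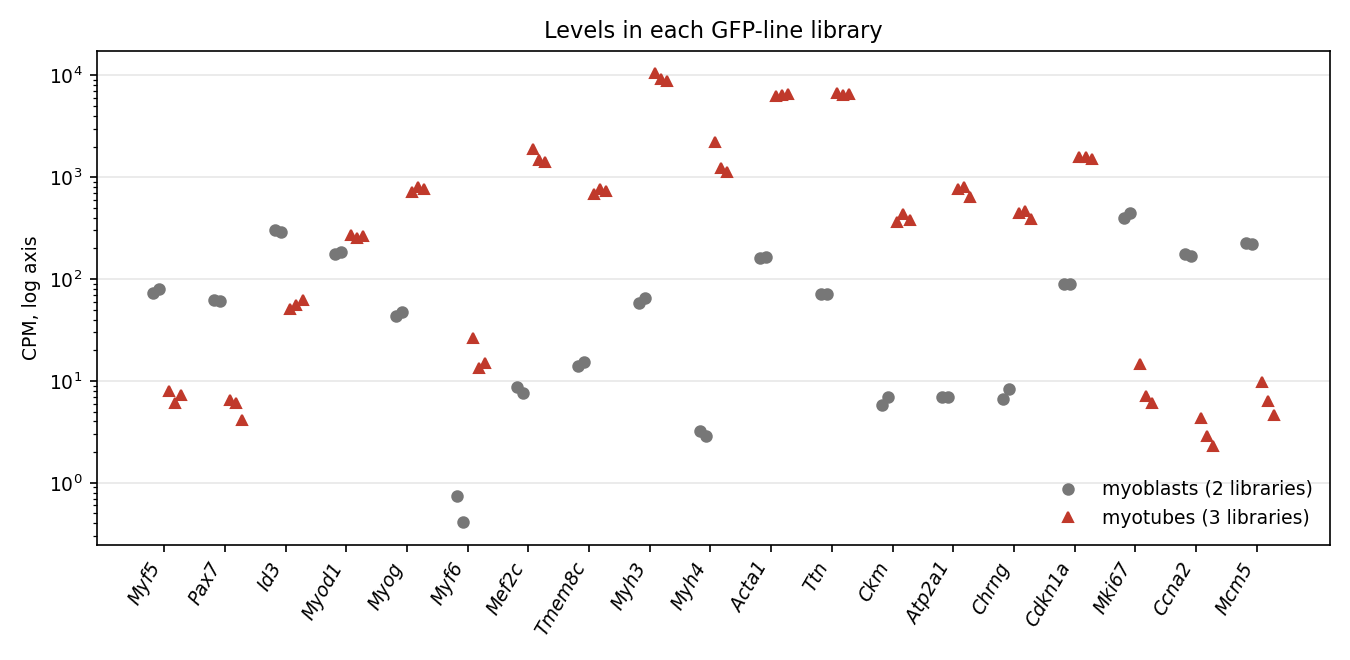
CPM of 19 genes on a log axis, 1 symbol per library, with grey circles for the 2 myoblast libraries and red triangles for the 3 myotube libraries. No gene shown has overlapping groups, and Myod1 has the narrowest gap, from 183 to 252 CPM.

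Factors of progenitors and inhibitors of myogenesis mostly fell, 18 of 26 tested against 4 that rose, with a median of -1.22 log2. Pax7, the satellite cell factor, was at 62.05 and 61.4 CPM in myoblasts and 6.53, 6.12 and 4.09 CPM in myotubes. It was lower in every myotube library and fell by 3.49 ± 0.19 log2 (adjusted p = 5.18e-10). Twist2, a repressor of myogenic bHLH factors, fell by 3.20 ± 0.16 log2, and Hmga1, a chromatin protein of proliferating cells, fell by 2.87 ± 0.50. Among the risers, Hes6, a bHLH protein that promotes differentiation, was at 76.7 and 73.7 CPM in myoblasts and 777, 833 and 837 CPM in myotubes. The groups were far apart, at 3.44 ± 0.11 log2. Bhlhe40 (2.41 ± 0.12 log2) and Zeb1 (1.48 ± 0.09), both transcriptional repressors, rose as well.

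Genes of fusion and adhesion moved both ways, 8 up and 10 down of 22 (10 up and 9 down with upper-quartile scaling), counts near the shares over all genes, with a median of -0.02 log2. Both dedicated fusion proteins rose. Tmem8c, which encodes myomaker, was at 13.9 and 15.2 CPM in myoblasts and 687, 771 and 736 CPM in myotubes. The myotube libraries lay close together and far above the myoblasts, at 5.65 ± 0.11 log2 (adjusted p = 2e-15). Gm7325, which encodes myomixer, was at 2.57 and 2.87 CPM in myoblasts and 96.9, 113 and 66.9 CPM in myotubes, a rise of 5.08 ± 0.35 log2 without overlap. Ncam1, a neural cell adhesion molecule that myotubes display, rose by 2.22 ± 0.11 log2. Kirrel, an immunoglobulin-type adhesion protein, was at 276 and 270.4 CPM in myoblasts and 21.3, 26.4 and 25.5 CPM in myotubes. It was lower in all myotube libraries and fell by 3.48 ± 0.34 log2. Mcam and Vcam1, further immunoglobulin-type adhesion proteins, fell, with -2.64 ± 0.17 and -2.38 ± 0.35 log2.

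The thick filament had the highest median change of the 29 gene lists. All 22 thick filament genes tested rose, by 3.29 to 8.97 log2 with a median of 7.25, where 39.8% of all genes rose. Their summed level was 397 and 399 CPM in myoblasts and 38932, 32168 and 31983 CPM in myotubes. That is 86.3 times as much in the mean, highest in myotube replicate 1. Embryonic myosin heavy chain, Myh3, was at 58.5 and 64.4 CPM in myoblasts and 10490.3, 9289 and 8737 CPM in myotubes. Every myotube library exceeded the myoblasts by a wide margin, at 7.27 ± 0.17 log2 (adjusted p = 1.84e-14). The adult fast chains rose too. Myh4 (IIb) was at 3.22 and 2.87 CPM in myoblasts and 2218, 1243 and 1118 CPM in myotubes. Myh1 (IIx) was at 10.3 and 8.71 CPM in myoblasts and 4339, 2528 and 3682 CPM in myotubes. Myh2 (IIa) was at 4.01 and 3.88 CPM in myoblasts and 1413, 880.3 and 1117 CPM in myotubes. Their differences were 8.97 ± 0.60, 8.53 ± 0.48 and 8.17 ± 0.42 log2, and replicate 1 was the highest myotube library for each. The fast myosin light chain Myl1 rose by 6.62 ± 0.16 log2. Heavy chain genes share long stretches of sequence, and how reads that match several genes were counted is not given in the sources used here, so the split among them is uncertain.

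In the thick filament list 3 genes had almost no myoblast reads. Myl3, the slow ventricular light chain, had 0 reads in myoblasts and was at least 4.11-fold higher in myotubes (floor of 3 reads over the group). Myl2 and Mybpc3 had 1 myoblast read each. Their ratios were 358 (95% counting interval 63.97 to 14148) and 11.8 (1.91 to 487), with intervals that cover counting error only. At its bound Myl3 lies below the median of the list, as its fitted value does.

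The thin filament list had 16 of 19 tested genes up and 1 down, with a median of 5.79 log2. Tnnc2, the calcium sensor of fast fibres, was at 6.67 and 5.38 CPM in myoblasts and 1045, 941 and 736 CPM in myotubes. No library overlapped, and the difference was 7.23 ± 0.23 log2. Tnni2, its inhibitory partner, rose by 6.80 ± 0.26 and Lmod2, a nucleator of thin filaments, by 7.16 ± 0.26 log2. Tpm3, a tropomyosin with both slow muscle and cytoskeletal products, was the single fall. It was at 292 and 289.6 CPM in myoblasts and 248, 284 and 236 CPM in myotubes, and its call (-0.18 ± 0.08 log2, adjusted p = 0.0446) was lost in 11 of the 13 alternatives (adjusted p = 0.0522 to 0.866). Tnni3, the cardiac inhibitory subunit (-0.15 log2, adjusted p = 0.79), and Tmod4 (0.33 ± 0.30, adjusted p = 0.318) did not pass.

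Z-disc and assembly genes rose in 25 of 26 cases, with a median of 5.59 log2. Myot, a crosslinker of Z-disc actin, was at 0.233 and 0.182 CPM in myoblasts and 125, 77.8 and 60.6 CPM in myotubes. It was nearly absent from myoblasts and rose by 8.68 ± 0.79 log2. Hspb7, a small heat shock protein of muscle, rose by 7.76 ± 0.23 and Myoz2, a calcineurin-binding Z-disc protein, by 7.75 ± 0.18 log2. Pdlim5 was the exception (0.15 log2, adjusted p = 0.25). Ttn, the giant spring of the sarcomere, was at 71.4 and 71.6 CPM in myoblasts and 6756, 6441 and 6536 CPM in myotubes, a rise of 6.52 ± 0.22 log2.

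Skeletal actin is shown with its promoter because its gene responds to the CArG box, the site of SRF, and to E-boxes, the sites of MyoD family members. Acta1 was at 161 and 166 CPM in myoblasts and 6288, 6342 and 6624 CPM in myotubes. All myotube libraries were within a narrow band far above the myoblasts, at 5.30 ± 0.13 log2 (adjusted p = 3.23e-14). The 250 bases before its RefSeq start (GRCm38.p6, chr8:123894776-123895025, minus strand, 5′ to 3′) hold an E-box CAGCTG at -221 and a CArG box at -73, both in capitals, with positions counted from 0 at the start base.
Acta1 promoter: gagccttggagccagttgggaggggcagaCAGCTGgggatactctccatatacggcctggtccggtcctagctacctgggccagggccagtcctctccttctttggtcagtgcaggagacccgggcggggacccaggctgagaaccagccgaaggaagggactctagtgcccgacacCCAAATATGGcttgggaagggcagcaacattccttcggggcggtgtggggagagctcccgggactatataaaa
Of all 32851 RefSeq windows of 300 bases, searched on both strands, 16.3% hold CAGCTG and 1.63% a CArG box. The shares among sarcomere genes are not given, since only 79.1% of them had a window.

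Genes of excitation and calcium handling rose in 25 of 27 cases, with a median of 4.57 log2. Cacna1s, the voltage sensor of the T-tubule, was at 3.59 and 3.79 CPM in myoblasts and 824, 718 and 773 CPM in myotubes. The groups were separate, at 7.71 ± 0.26 log2. Casq1, the calcium store protein of the sarcoplasmic reticulum, rose by 8.08 ± 0.34 log2. Sln, the calcium pump regulator sarcolipin, had 0 reads in myoblasts and 10.9, 4.35 and 5.06 CPM in myotubes, at least 90.4-fold higher (floor of 3 reads over the group; adjusted p = 0.000509). Asph (0.16 log2, adjusted p = 0.212) and Clcn1 (0.33, adjusted p = 0.258) did not pass.

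At the neuromuscular junction, 11 of 12 genes rose, with a median of 3.08 log2. Chrng, the fetal gamma subunit of the acetylcholine receptor, was at 6.72 and 8.26 CPM in myoblasts and 444, 469 and 390.3 CPM in myotubes. No library overlapped, and the rise was 5.86 ± 0.14 log2 (adjusted p = 2.81e-14). Chrnd, the delta subunit, rose by 5.17 ± 0.16 and Ache, the enzyme that splits acetylcholine, by 6.24 ± 0.43 log2. Agrn, the nerve-derived organiser that muscle also makes, did not pass (-0.31 log2, adjusted p = 0.23). The Chrng promoter is shown because receptor subunit genes are activated through E-boxes near their start. Its 250 bases (GRCm38.p6, chr1:87205561-87205810, plus strand) hold CAGCTG at -155 and at -132.
Chrng promoter: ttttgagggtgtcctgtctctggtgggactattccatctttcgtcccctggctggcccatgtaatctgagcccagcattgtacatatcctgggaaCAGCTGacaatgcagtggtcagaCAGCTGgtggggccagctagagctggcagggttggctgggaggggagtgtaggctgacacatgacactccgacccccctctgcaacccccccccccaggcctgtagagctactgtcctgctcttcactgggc
Of the junction genes 75.0% had a window, so no share is given for them.

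The dystrophin complex, which ties the cytoskeleton to the matrix, had 13 of 15 genes up and 1 down, with a median of 2.08 log2. Sgca, alpha-sarcoglycan, was at 7.04 and 7.94 CPM in myoblasts and 149, 133 and 137 CPM in myotubes, without overlap and at 4.22 ± 0.16 log2. Dmd, dystrophin, rose by 2.96 ± 0.13 and Itga7, the laminin receptor subunit of muscle, by 2.75 ± 0.09 log2. Sntb2, a syntrophin of broad expression, fell by 1.18 ± 0.06 log2.

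Muscle energy metabolism rose in 25 of 26 genes, with a median of 3.08 log2. Ckm, muscle creatine kinase, was at 5.83 and 6.89 CPM in myoblasts and 366, 439.5 and 376 CPM in myotubes. Myotube libraries lay far above myoblasts, at 5.95 ± 0.23 log2 (adjusted p = 3.31e-11). Art1, an ADP-ribosyltransferase of the muscle surface, rose by 8.47 ± 0.40 log2, and Cox6a2 and Cox8b, muscle subunits of cytochrome oxidase, by 7.61 ± 0.30 and 7.48 ± 0.51. Lpl, a lipase, did not pass (-0.35 log2, adjusted p = 0.0659).

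The respiratory chain as a whole did not follow. Of 44 genes 8 rose (39.8% of all genes did) and 23 fell (37.9%), none by 2-fold, with a median of -0.16 log2. Ndufs4, a complex I subunit, was at 44.6 and 43.4 CPM in myoblasts and 81.2, 71.6 and 72.4 CPM in myotubes and rose by 0.77 ± 0.09 log2. Uqcrc1, a complex III core protein, was at 259 and 262 CPM in myoblasts and 141, 149 and 132 CPM in myotubes and fell by 0.89 ± 0.08 log2. Cytochrome c (Cycs) fell by 0.84 ± 0.06 and Cyc1, another complex III subunit, fell by 0.81 ± 0.08 log2. The counts moved with the scaling and the filter. Upper-quartile scaling left 12 falls, and the filter of 5 CPM gave 13 rises and 12 falls.

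Muscle and broadly expressed forms of the same protein were compared in 26 pairs. The ratio of muscle to broad form was higher in every myotube library than in both myoblast libraries for all 26 pairs. The muscle form rose in 25, and the broad form fell in 21 and rose in 3, where 39.8% of all genes rose and 37.9% fell. The pairs were chosen with earlier results of these data known, so these counts are descriptions. Cytoplasmic actin Actb, the broad counterpart of Acta1, was at 5717 and 5737 CPM in myoblasts and 566, 659 and 596 CPM in myotubes, lower in every myotube library, and fell by 3.24 ± 0.28 log2. Myh9, the non-muscle heavy chain, was at 1999 and 2017 CPM in myoblasts and 678, 795 and 750.2 CPM in myotubes and fell by 1.44 ± 0.15 log2. Vim, the filament protein of mesenchymal cells, fell by 1.96 ± 0.17, while its muscle counterpart Des rose by 3.20 ± 0.09 log2. Cfl1 fell by 2.48 ± 0.14 and the muscle cofilin Cfl2 rose by 1.46 ± 0.08 log2.

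In the enzyme and subunit pairs the same crossing was seen within 1 complex. Cox6a1, the broad subunit of cytochrome oxidase, was at 161 and 153 CPM in myoblasts and 66.8, 63.3 and 65.7 CPM in myotubes, while Cox6a2 was at 0.653 and 0.502 CPM in myoblasts and 134, 107 and 100.3 CPM in myotubes. The first was lower in every myotube library and fell by 1.27 ± 0.11 log2, and the second was close to absent from myoblasts. Pgam1 fell by 2.21 ± 0.12 and Pgam2, the muscle phosphoglycerate mutase, rose by 4.49 ± 0.24 log2. Ckb, brain creatine kinase, was at 87.5 and 86.8 CPM in myoblasts and 296, 261 and 340.0 CPM in myotubes and rose by 1.78 ± 0.13 log2 beside Ckm. The other broad forms that rose were Pfkp (0.99 ± 0.20 log2) and Utrn (1.08 ± 0.09), the homologue of dystrophin. Myof (0.08 ± 0.09, adjusted p = 0.42) and Cdh2 (-0.13 ± 0.12, adjusted p = 0.343) did not pass, although Myof was called with upper-quartile scaling and with the filter of 5 CPM (0.23 and 0.25 log2). Tmod4 was the muscle form that did not pass. Paralogs this alike may share reads, so each ratio carries that uncertainty.

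**Figure D3:**
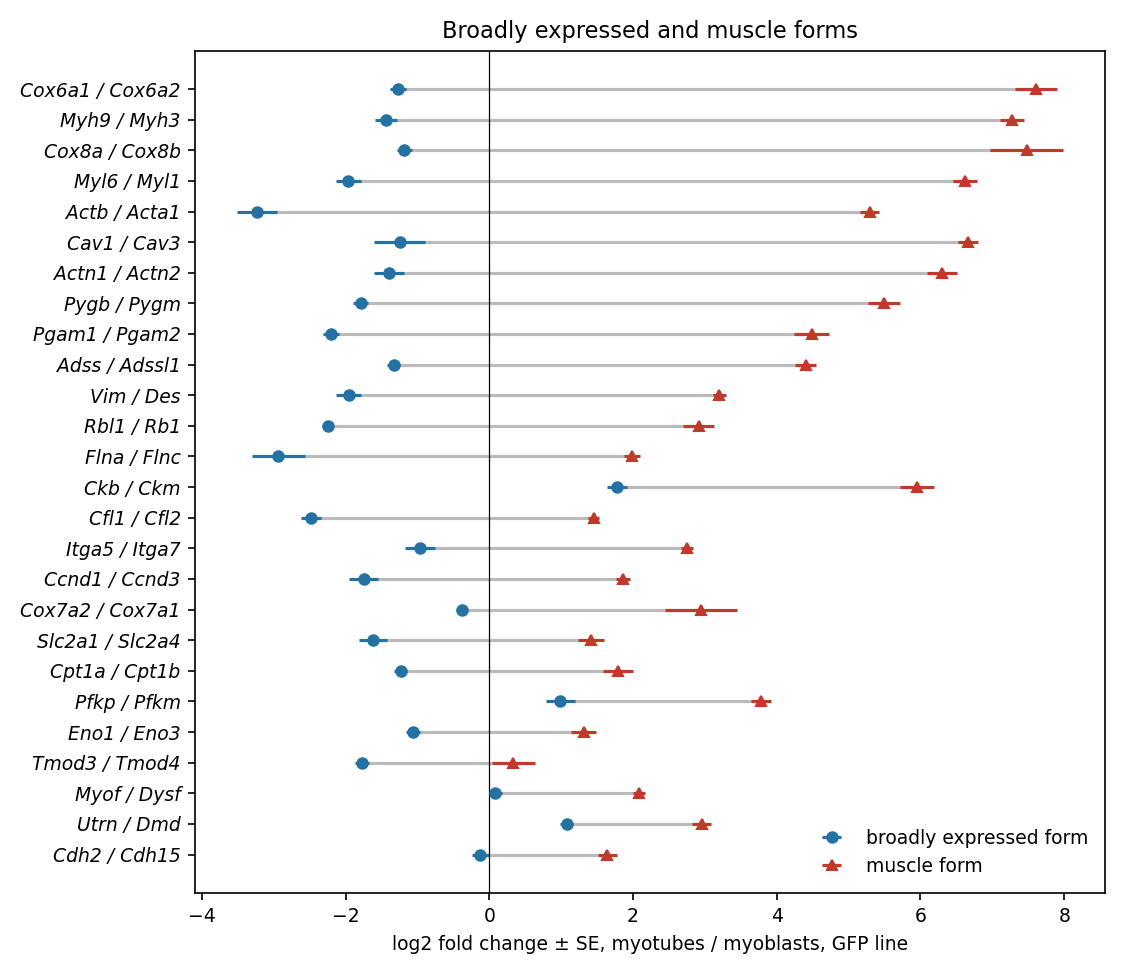
Log2 fold change ± SE of the broadly expressed form (blue circle) and the muscle form (red triangle) of 26 pairs in GFP-line myotubes over myoblasts. The triangle is to the right of the circle in all 26 pairs, with Cox6a1 and Cox6a2 farthest apart.

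Genes of mitosis and DNA replication fell together. Of 54 mitosis genes 53 fell and the other lay below 0, with a median of -4.46 log2, and 34 fell at least 16-fold. Their summed level was 7271 and 7341 CPM in myoblasts and 765, 588 and 586 CPM in myotubes, 11.3 times lower in the mean. Myotube replicate 1 held the most. By the labels' protocol only the myotubes had been given AraC. Ccna2, cyclin A, was at 176 and 168 CPM in myoblasts and 4.30, 2.88 and 2.30 CPM in myotubes, lower in each myotube library, and fell by 5.82 ± 0.33 log2 (adjusted p = 4.4e-09). Aurkb, the kinase of chromosome segregation, fell by 5.76 ± 0.31 and Nuf2, a kinetochore protein, fell by 5.59 ± 0.37 log2. Mki67, the Ki-67 proliferation antigen, was at 400.5 and 441 CPM in myoblasts and 14.8, 7.16 and 6.09 CPM in myotubes. It followed the same order among myotube libraries, with replicate 1 highest, and fell by 5.54 ± 0.50 log2. Cdk1, the mitotic kinase, and Birc5, survivin, fell, with -5.39 ± 0.45 and -5.38 ± 0.31 log2. Cdc25b was the member that did not pass (-0.23 log2, adjusted p = 0.12).

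DNA replication genes fell in 48 of 49 cases, with a median of -2.98 log2 and 7 at least 16-fold. Together they held 4892 and 4790 CPM in myoblasts and 828, 794 and 798 CPM in myotubes. Mcm5, part of the replicative helicase, was at 224 and 222 CPM in myoblasts and 9.81, 6.42 and 4.59 CPM in myotubes, and it fell by 5.05 ± 0.32 log2 with no overlap. Mcm6 fell by 4.89 ± 0.13 and Uhrf1, which maintains DNA methylation at replication, fell by 5.03 ± 0.26 log2. Pola2, a subunit of the priming polymerase, did not pass (0.06 log2, adjusted p = 0.598) and was called as a rise with upper-quartile scaling and with the filter of 5 CPM.

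Promoters of mitotic genes are known for CCAAT boxes, bound by NF-Y, and for the cell cycle homology region TTTGAA, through which the DREAM complex represses them outside the cycle. A pair of promoters is shown with these motifs in capitals, read on either strand. Cdc20, the activator of the anaphase-promoting complex, was at 301 and 312 CPM in myoblasts and 11.8, 6.27 and 5.12 CPM in myotubes and fell by 5.35 ± 0.35 log2. Its 250 bases (GRCm38.p6, chr4:118437344-118437593, minus strand) hold CCAAT at -53 and -8 and TTTGAA at -18. Ube2c, the ubiquitin-conjugating enzyme of that complex, was at 141 and 141 CPM in myoblasts and 5.36, 2.29 and 2.18 CPM in myotubes and fell by 5.50 ± 0.33 log2. Its window (chr2:164769679-164769928, plus strand) holds CCAAT 6 times, an overlapping pair counted once per strand, and TTTGAA at -29.
Cdc20 promoter: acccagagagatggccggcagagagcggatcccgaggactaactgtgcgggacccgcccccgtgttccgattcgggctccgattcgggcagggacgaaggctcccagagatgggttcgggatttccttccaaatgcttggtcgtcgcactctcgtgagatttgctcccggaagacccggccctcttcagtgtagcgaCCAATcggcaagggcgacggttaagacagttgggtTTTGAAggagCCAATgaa
Ube2c promoter: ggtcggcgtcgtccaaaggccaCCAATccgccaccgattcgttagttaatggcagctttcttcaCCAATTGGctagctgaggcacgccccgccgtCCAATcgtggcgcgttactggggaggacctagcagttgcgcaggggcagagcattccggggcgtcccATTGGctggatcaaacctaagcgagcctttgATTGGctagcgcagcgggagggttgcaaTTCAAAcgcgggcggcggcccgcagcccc
Of 54 mitosis genes 46 had a RefSeq window of 300 bases (85.2%). CCAAT was present in 34 of these (73.9%) against 37.4% of all windows, TTTGAA in 31 (67.4%) against 17.9%, and both in 28. The E2F motif (TTTCCCGC or TTTGGCGC) was in 3 (6.52%) against 1.56% of all windows, and CAGCTG in 8 (17.4%) against 16.3%. A gene was counted if any of its windows held the motif, while the shares of all windows count each window once. Genes with several windows therefore had more chances, and both motifs need not lie in the same window. These are matches of letters, given as a description. DNA replication genes had a window in 77.6% of cases, too few for a share.

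Regulators of the cycle moved in both directions, 5 of 28 up and 18 down, with a median of -0.79 log2. Cdkn1a, the cyclin-dependent kinase inhibitor p21, was at 89.2 and 89.7 CPM in myoblasts and 1571, 1571 and 1519 CPM in myotubes. The myotube libraries were nearly equal and far above the myoblasts, at 4.12 ± 0.08 log2 (adjusted p = 1.92e-15). Rb1, the retinoblastoma protein, was at 10.2 and 9.08 CPM in myoblasts and 78.1, 62.4 and 76.7 CPM in myotubes, a rise of 2.91 ± 0.22 log2, while its relative Rbl1 (p107) fell by 2.25 ± 0.07. Cyclin D3 (Ccnd3) rose by 1.86 ± 0.10 and cyclin D1 (Ccnd1) fell by 1.75 ± 0.20 log2. E2f7, a repressive E2F factor, fell by 4.35 ± 0.22, and the S-phase cyclins did too, Ccne1 at -3.98 ± 0.18 and Ccne2 at -3.42 ± 0.26 log2.

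Targets of p53 moved both ways, 10 up (45.5%) and 6 down (27.3%) of 22, against 39.8% and 37.9% of all genes, with a median of 0.16 log2. Eda2r, a receptor of the TNF family, was at 23 and 21.98 CPM in myoblasts and 459, 367 and 398 CPM in myotubes and rose by 4.18 ± 0.19 log2. Pmaip1 (Noxa) rose by 2.83 ± 0.20, and Trp53inp1, a stress-induced regulator of autophagy, by 2.30 ± 0.15. Bax, the pore-forming apoptosis protein, fell by 1.05 ± 0.08, and Fdxr, ferredoxin reductase, fell by 1.08 ± 0.13 log2. Ddit4, an inhibitor of mTOR signalling, fell by 0.93 ± 0.24. Cdkn1a, itself a target of p53, was not on this list and is counted with the cycle regulators above.

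The non-muscle cytoskeleton and nuclear lamina list had 20 of 26 genes down and 4 up, with a median of -1.63 log2. Lmnb1, lamin B1, was at 220.0 and 219 CPM in myoblasts and 10.9, 9.92 and 10.1 CPM in myotubes. The libraries of each state were nearly equal, and the gene fell by 4.41 ± 0.09 log2 (adjusted p = 5.51e-15). Actg1, cytoplasmic gamma-actin, was at 5976 and 5981 CPM in myoblasts and 494, 638 and 581 CPM in myotubes and fell by 3.39 ± 0.30 log2. Nes, the filament protein nestin, rose by 1.84 ± 0.09 and Tubb6, a beta-tubulin, by 1.40 ± 0.14 log2.

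Extracellular matrix genes fell in 28 of 38 cases and rose in 5, with a median of -1.15 log2. Col1a2, a chain of type I collagen, was at 29.4 and 31.8 CPM in myoblasts and 3.19, 3.84 and 2.59 CPM in myotubes and fell by 3.26 ± 0.32 log2. Mmp2, a matrix protease, fell by 3.37 ± 0.38, and Fmod, fibromodulin, fell by 3.71 ± 0.26. Those that rose included basement membrane proteins. Nid2, nidogen 2, was at 196 and 203 CPM in myoblasts and 403, 388 and 531 CPM in myotubes and rose by 1.15 ± 0.18 log2, and Hspg2, perlecan, by 0.59 ± 0.09. Timp2, a protease inhibitor, rose by 0.78 ± 0.09 log2.

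Growth factors and receptors were divided, 14 up (50%) and 9 down (32.1%) of 28, against 39.8% and 37.9% of all genes. Their median was 0.49 log2. Igf2, a growth factor of differentiating muscle, was at 214 and 222 CPM in myoblasts and 2473, 2082 and 2813 CPM in myotubes. Every myotube library was above the myoblasts, at 3.49 ± 0.17 log2 (adjusted p = 1.03e-10). Fst, the myostatin antagonist follistatin, was at 8.21 and 7.71 CPM in myoblasts and 377, 309 and 307 CPM in myotubes and rose by 5.38 ± 0.32 log2. Erbb3, a neuregulin receptor, rose by 5.36 ± 0.15. Igfbp2, which binds IGFs, fell by 3.56 ± 0.27 log2. Pdgfrb, a PDGF receptor, fell by 3.37 ± 0.17, and Met, the receptor of hepatocyte growth factor, fell by 2.59 ± 0.17 log2.

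The lists of ribosome biogenesis and cholesterol synthesis mostly fell. Ribosome biogenesis had 22 of 26 genes down and 1 up (Rrp12, 0.58 ± 0.09 log2), with a median of -1.17. Npm1, nucleophosmin, was at 717 and 739.6 CPM in myoblasts and 185, 206 and 209 CPM in myotubes, lower in each myotube library, and fell by 1.86 ± 0.10 log2. Rrs1 and Fbl, nucleolar assembly and methylation factors, fell, with -2.15 ± 0.09 and -1.96 ± 0.13. Cholesterol synthesis and uptake fell in 16 of 22 genes and rose in 2, with a median of -1.14 log2. Stard4, a sterol carrier, was at 15.6 and 15.9 CPM in myoblasts and 2.02, 1.81 and 1.15 CPM in myotubes and fell by 3.28 ± 0.24 log2. Ebp, a sterol isomerase, rose by 1.06 ± 0.16 log2.

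Atrophy, autophagy and lysosome genes rose in 16 of 22 cases and fell in 2, with a median of 0.43 log2. Trim63, the muscle ubiquitin ligase MuRF1, was at 1.12 and 1.19 CPM in myoblasts and 63.8, 72.8 and 64.6 CPM in myotubes. It was near 1 CPM in both myoblast libraries and rose by 5.86 ± 0.12 log2 (adjusted p = 4.8e-15). Fbxo32, the ligase atrogin-1, rose by 3.08 ± 0.15, and Ctsd, a lysosomal protease, by 2.34 ± 0.16 log2. Atg5 and Gabarapl1, autophagy proteins, fell, with -0.55 ± 0.07 and -0.50 ± 0.08. Interferon response genes rose in 11 of 22 cases (50%) and fell in 4 (18.2%), against 39.8% and 37.9% of all genes. Their median was 0.54 log2, but rises numbered 4 with the filter of 5 CPM. The summed level of the list was lower in every myotube library, at 144 and 139 against 114, 126 and 122 CPM. Irf1, an interferon-induced factor, was at 18.4 and 14.5 CPM in myoblasts and 6.47, 8.04 and 8.36 CPM in myotubes and fell by 1.10 ± 0.19 log2. Ifit2 rose by 0.55 ± 0.12 and Irf9 by 0.54 ± 0.17, the latter without a call when myoblast replicate 1 was left out (adjusted p = 0.0728).

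**Figure D4:**
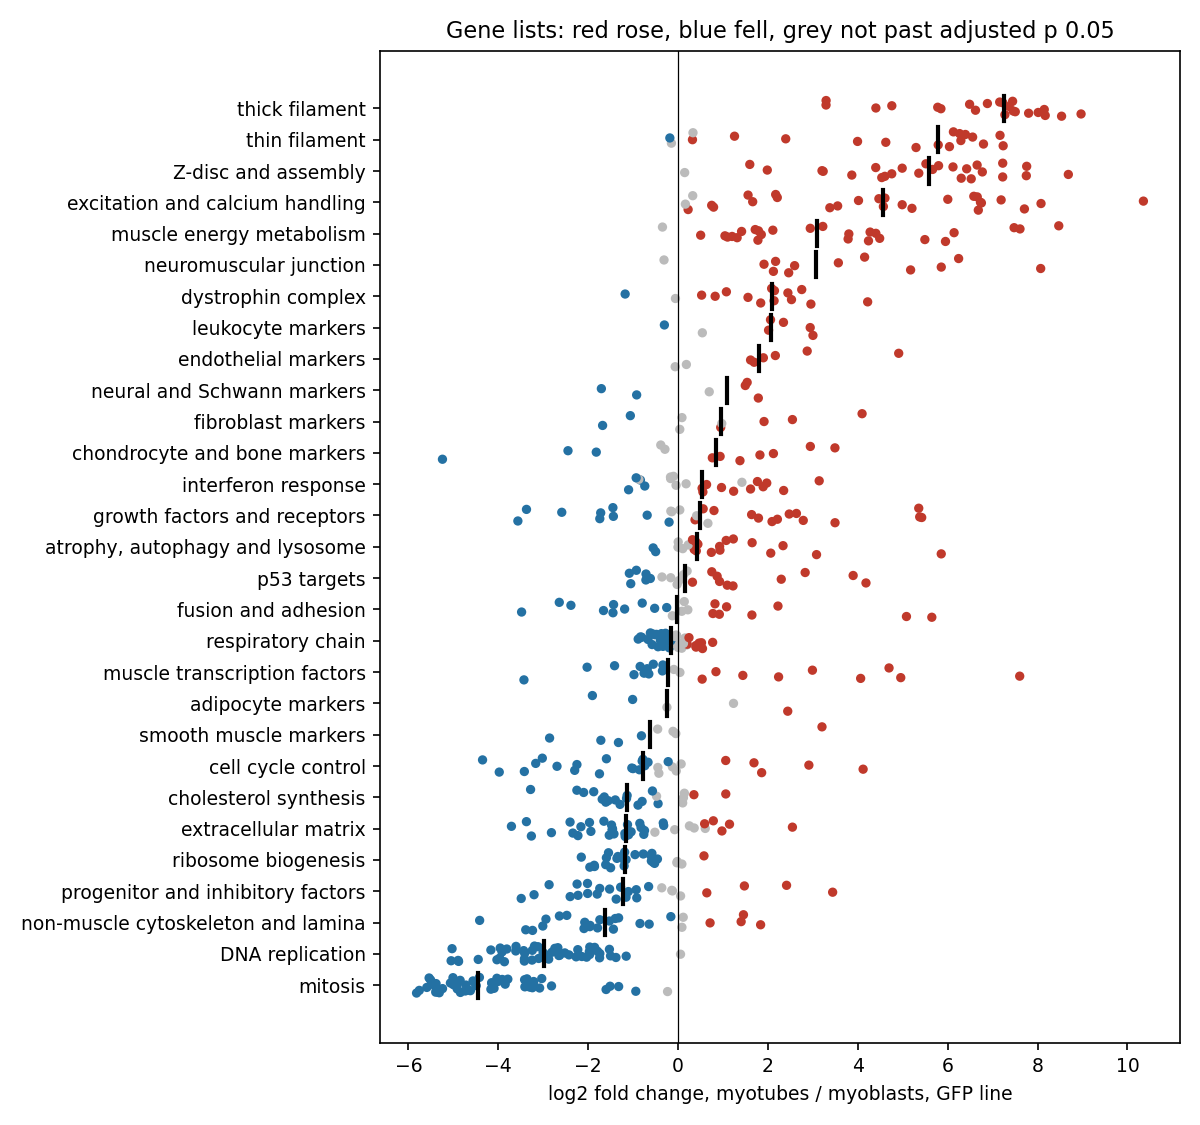
Log2 fold change of every tested member of 29 gene lists in GFP-line myotubes over myoblasts, 1 point per gene, with the median of each list as a black bar. Red points rose, blue points fell and grey points did not pass an adjusted p of 0.05, and medians run from -4.46 for mitosis to 7.25 for the thick filament.

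Of the 12 largest rises among genes with at least 5 CPM in the higher group, 6 were of genes with no read in myoblasts, Sln among them. Cyb5r2, a cytochrome b5 reductase, had 0 reads there and 11.9, 10.7 and 8.45 CPM in myotubes, at least 145-fold higher. Likewise Serpinb7, a serine protease inhibitor, was at least 125-fold, Ptgds, prostaglandin D synthase, at least 83.8-fold, Slc6a19, an amino acid transporter, at least 80.6-fold and Hoxd8, a homeobox factor, at least 73.3-fold higher. Gdf5, a BMP-type growth factor, had 1 myoblast read and 30.4, 26.3 and 23.5 CPM in myotubes, a ratio of 1131 (95% counting interval 203 to 44710). Rbp3 and Cldn2, also with 1 read, had ratios of 626 (112 to 24759) and 449 (80.4 to 17770). The remaining 3 were Myh4, Myot and Myh1, given above. Among the 12 largest falls 10 are mitosis genes given or counted above. Fam64a, a proliferation-associated regulator of the metaphase-anaphase transition, was at 60 and 64.1 CPM in myoblasts and 1.42, 0.885 and 0.5003 CPM in myotubes, and fell by 6.15 ± 0.34 log2. Cdca7, a chromatin remodelling partner, fell by 5.56 ± 0.29 log2.

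The genes that took the most reads also changed. In myoblasts they included Eef1a1, Vim, Actg1 and Actb. Eef1a1, a translation elongation factor, was at 9365 and 9394 CPM in myoblasts and 6599, 6686 and 6776 CPM in myotubes and fell by 0.49 ± 0.05 log2. H19, an imprinted noncoding RNA next to Igf2, was at 3074 and 3039.8 CPM in myoblasts and 11906, 9849.5 and 9950.4 CPM in myotubes. It was high in both states and rose by 1.79 ± 0.11 log2. Myo3a, annotated as an unconventional myosin, was at 5445 and 5559 CPM in myoblasts and 11912, 10646 and 9679 CPM in myotubes, a rise of 0.97 ± 0.10 log2. How reads with several matches were counted is not given in the sources used here, so what those Myo3a reads are was not tested.

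Markers of other cell types were measured because neither the myoblast cultures nor the isolated myotubes need be pure. By the labels' protocol only the myotubes had been freed and caught on a mesh. Adipocyte markers summed to 21.9 and 21.3 CPM in myoblasts and 9.05, 8.45 and 7.56 CPM in myotubes, with 1 of 5 tested up and 2 down. Fibroblast markers summed to 30.0 and 31.7 against 33.3, 30.8 and 32.0 CPM, with 4 of 9 up and 2 down, and Tcf21 was at 0 reads in all 5 libraries. Leukocyte markers, at 31.1 and 30.1 against 32.4, 36.3 and 35.0 CPM, had 5 of 7 up and 1 down (Itgam, -0.30 ± 0.13 log2, a call lost in 7 of 13 alternatives). Endothelial markers summed to 17.9 and 16.1 against 40.3, 44.7 and 41.1 CPM, with 6 of 8 up, Tek, the angiopoietin receptor, among them (1.61 ± 0.12 log2). These lists hold genes of few reads, and with the filter of 5 CPM the rises were 0, 1, 2 and 2 in that order.

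Smooth muscle, neural and skeletal markers were less scarce. Smooth muscle actin, Acta2, was at 2513 and 2496 CPM in myoblasts and 829, 1045 and 1122 CPM in myotubes and fell by 1.33 ± 0.28 log2, as did Tagln (-1.72 ± 0.32) and Cnn1 (-2.86 ± 0.43), both actin-binding proteins. Of 8 smooth muscle markers 4 fell, and the 1 that rose, Des, is also a skeletal muscle gene. Neural and Schwann markers had 3 of 6 up and 2 down (0 up and 2 down with the filter of 5 CPM), the falls being Mbp (-0.92 ± 0.08) and Tubb3 (-1.71 ± 0.11), and summed to 407 and 393 against 178, 186 and 185 CPM. Chondrocyte and bone markers had 7 of 12 up and 3 down, and with that filter 2 up and 3 down. Of the 7 that rose, 5 did so at least 2-fold, and the median of the list was 0.85 log2. Sox5, among the risers, rose by 0.94 ± 0.09 log2. The summed level of the list was nevertheless lower in myotubes, at 1514 and 1527 against 1217, 1159 and 892 CPM. Runx2, the bone factor, was at 119.6 and 119 CPM in myoblasts and 29.1, 34.01 and 38.1 CPM in myotubes and fell by 1.82 ± 0.11 log2. Col2a1, cartilage collagen, was at 32.1 and 30.3 CPM in myoblasts and 0.202, 1.44 and 0.706 CPM in myotubes and fell by 5.24 ± 0.35 log2. The part of other cell types in the changes above was not tested.

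Differentiation was compared with that of the msx2 line, whose libraries are separate. Of the calls in the GFP line 89.4% were also called in the same direction in the msx2 line. Of that line's calls 87.0% were called so in the GFP line. Among all 16245 genes tested, 40.8% rose and 39% fell in the msx2 line. Genes called in the same direction in both lines made up 69.4% of all tested. The change itself differed between lines in 1345 genes (8.28%), more positive in the GFP line in 694 (4.27%) and more negative in 651 (4.01%). Which direction was the more frequent depended on the setting. The more negative changes outnumbered the more positive ones in 9 of the 13 alternatives, as 884 against 445 with upper-quartile scaling, 398 against 276 without myoblast replicate 1 and 255 against 184 without myoblast replicate 2. Over the alternatives the number of such genes ran from 439, without myoblast replicate 2, to 2264, with the replicate number as a block. Among the genes named here the difference was past the threshold in 56 of 204, some of them named for that difference, and 28 of these kept the call in every alternative run. No alternative left out an msx2-line myoblast or uninduced myotube library, so dependence of these calls on any of those was not tested. The change was more positive in the GFP line for 26 of the 28.

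The 26 included muscle genes of several lists. Myog rose by 1.78 ± 0.12 log2 more in the GFP line (adjusted p = 7.98e-07). Its level was 164.6 and 153.5 CPM in msx2-line myoblasts, above both GFP-line myoblast libraries, and 812, 752 and 757.5 CPM in msx2-line myotubes, overlapping those of the GFP line. Tmem8c differed by 1.82 ± 0.12 log2 (adjusted p = 7.3e-07), with 51.0 and 49.3 CPM in msx2-line myoblasts and 728, 733 and 676 CPM in its myotubes. The pattern of levels was the same as for Myog. Ckm (2.19 ± 0.27), Tnni2 (2.08 ± 0.29), Tnnc2 (2.00 ± 0.25), Cacna1s (1.99 ± 0.29), Cav3 (1.91 ± 0.16), Myh3 (1.80 ± 0.17), Trim63 (1.72 ± 0.17), Chrng (1.53 ± 0.16) and Acta1 (1.24 ± 0.15) were further members. For all 26 genes both msx2-line myoblast libraries stood above both GFP-line myoblast libraries, and for 22 of them the myotube libraries of the lines overlapped. These genes were picked by a more positive GFP-line change, which favours such levels, and the share over all genes was not counted. The counts are therefore descriptions.

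Heyl, a Notch target and repressor, showed the difference although its change in the GFP line did not pass. It was at 6.95 and 6.70 CPM in myoblasts and 5.87, 6.86 and 6.03 CPM in myotubes, with overlapping groups (-0.12 ± 0.10 log2, adjusted p = 0.279). In the msx2 line it was at 35.1 and 31.9 CPM in myoblasts and 5.34, 5.87 and 6.01 CPM in myotubes, so the lines differed by 2.41 ± 0.13 log2 (adjusted p = 1.07e-07). The 2 remaining genes had the more negative change in the GFP line under every alternative. Cys1, a ciliary protein, was at 18.3 and 21.8 CPM in myoblasts and 9.16, 10.4 and 9.62 CPM in myotubes there, and in the msx2 line at 8.33 and 9.01 CPM in myoblasts and 10.7, 12.1 and 11.8 CPM in myotubes (-1.46 ± 0.16 log2, adjusted p = 8.32e-05). Rasgrp3, a Ras activator, differed by -1.50 ± 0.31 log2 (adjusted p = 0.00796). Uninduced msx2-line cells held Msx2 at 16.8 and 16.4 CPM in myoblasts and 12.1, 15.9 and 13.2 CPM in myotubes, above every GFP-line library. Whether that or another property of the lines goes with these differences was not tested.

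**Figure D5:**
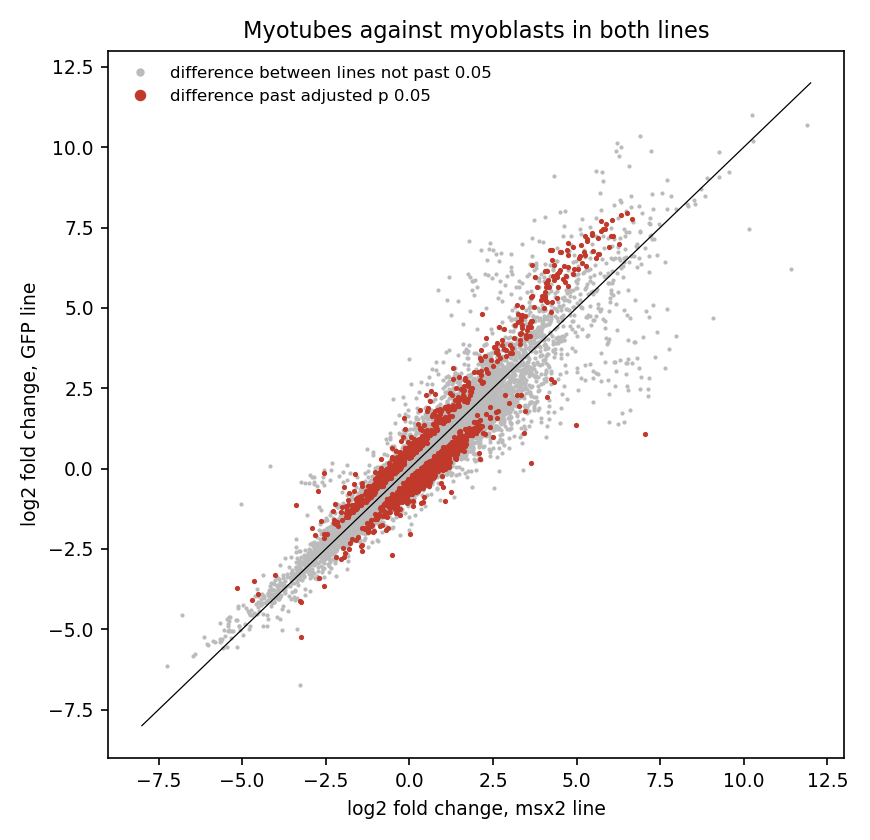
Log2 fold change of uninduced myotubes over myoblasts in the msx2 line against the GFP line, 1 point per gene, with the diagonal of equal change. Red points are the 1345 genes whose change differed between lines at an adjusted p under 0.05, of which 694 had the more positive change in the GFP line.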

How the data were processed

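RNA-seq of 16 libraries was deposited as counts, whole reads per gene for 19866 entries, and 67 entries without a symbol (0.0648 to 0.0848% of reads in these 5 libraries) were left out. Per the submitters' processing notes, the tools were TopHat2 (2.0.11), SAMtools (0.1.19) and edgeR (3.6.8), and the build mm9. Which tool counted reads, with what annotation and strand option, is not given in the sources used here.

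All 16 libraries, with 1 coefficient per group, were fitted with edgeR 4.0.16 (R 4.3.3, limma 3.58.1) using filterByExpr with a minimum count of 10, TMM scaling and robust two-sided quasi-likelihood F-tests. Adjustment was by Benjamini-Hochberg across the tested genes. Fold changes are the shrunken ones, and SE is the unshrunken change over the square root of F. The fit was tested on simulated data.

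Members, 29 gene lists and 26 pairs were chosen with earlier results of these data known. Genes named were the 12 largest changes each way (at least 5 CPM in the higher group, no overlap, no predicted genes), up to 3 each way per list, all muscle transcription factors and pair members, the 5 genes with the most reads per state and the 5 largest line differences each way. The members that did not pass in short lists were added after their values were seen. Some genes that this rule takes are not reported here. Alternatives were other scalings and filters, DESeq2 1.42.0, the compared libraries alone and a replicate block. Each of the 5 GFP-line libraries compared was also left out in turn, but no msx2-line library was. Promoter windows are RefSeq's, of GRCm38.p6, not the build of the counts. They were matched by symbol for 12799 of 16245 genes.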

Additional observations from a re-analysis of the deposited data

Results flagged for a closer look

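A change between myotubes and myoblasts that differed between the GFP line and the msx2 line, by the interaction term of the edgeR fit, set 56 of 204 named genes apart, where 8.28% of all genes tested passed (694 more positive and 651 more negative in the GFP line). Part of the 56 were named because they had the largest such differences, and the rest mostly because they changed in differentiation, so the share and the split of the 56 are descriptions. The values are the GFP-line change minus the msx2-line change in log2. In 49 genes the GFP-line change was the more positive, and in each of these both msx2-line myoblast libraries stood above both GFP-line ones, while the myotube libraries of the lines overlapped in 37. Picking genes by a more positive GFP-line change favours this pattern of levels, and its share over all genes was not counted.

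Among regulators these were Heyl (2.41), Myog (1.78), Smyd1 (1.36), Pax7 (1.15), Pitx3 (0.96), Hes6 (0.71), Nfix (0.67), Tead4 (0.66), Mef2d (0.60), Bhlhe40 (0.60), Myod1 (0.45) and Tcf3 (0.43). Among sarcomere and Z-disc genes they were Tnni2 (2.08), Tnnc2 (2.00), Myh3 (1.80), Myoz2 (1.68), Myl1 (1.52), Acta1 (1.24), Hspb7 (1.10), Actn2 (1.01) and Des (0.71). Membrane, junction and fusion genes were Cacna1s (1.99), Cav3 (1.91), Gm7325 (1.85), Tmem8c (1.82), Chrng (1.53), Chrnd (1.07), Cdh15 (0.96), Sgca (0.89), Itga7 (0.63) and Ncam1 (0.62). Metabolic and proteolytic genes were Ckm (2.19), Cox6a2 (1.73), Trim63 (1.72), Adssl1 (0.77), Ckb (0.61) and Nsdhl (0.30). Growth factor, matrix and cell cycle genes were Erbb3 (1.68), Fmod (1.43), Fst (1.42), Igf2 (1.23), Hspg2 (0.71), Ccnd3 (0.56) and Cdkn1a (0.51). The rest were Chi3l1 (2.68), Dhrs7c (2.54), Syt8 (2.29), H19 (1.25) and Irf9 (0.94).

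The GFP-line change was the more negative for Col2a1 (-1.99), Sbsn (-1.63), Rasgrp3 (-1.50), Cys1 (-1.46), Serpinb9b (-1.45), Trp53inp1 (-1.04) and Npm1 (-0.53). The call was lost in at least 1 alternative for 28 of the 56 genes.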

How the results depend on the processing

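No named gene turned from one direction to the other with a call in the 13 alternatives, and of 832 recomputed counts 779 stayed within 1.5 times. Of 32 pairs of upward and downward counts, 6 changed which was the larger. These were all genes (5952 up and 5989 down with summed myoblast libraries), differences between lines (9 alternatives), fusion and adhesion (10 up and 9 down with upper-quartile scaling and with the filter of 5 CPM) and, with that filter, the respiratory chain, neural and chondrocyte lists. Genes called in the GFP line numbered 5681 to 6281 up and 5664 to 6026 down with 1 library left out. Upper-quartile scaling moved the median of all genes from 0.06 to 0.20 log2 and the share of calls that rose from 51.2% to 57.6%. It left 12 falls in the respiratory chain, 1 rise in DNA replication, 2 in ribosome biogenesis, 0 leukocyte falls and 445 genes with the more positive change in the GFP line. The filter of 5 CPM in 2 libraries tested 12335 genes, of which 2564 rose at least 2-fold. It left 13 respiratory chain rises and 12 falls, 1 rise in DNA replication, 3 in extracellular matrix, 3 in ribosome biogenesis, 4 in cholesterol synthesis and 4 in the interferon response. Marker rises under it were 0 adipocyte, 1 fibroblast, 2 endothelial, 2 leukocyte, 0 neural and 2 chondrocyte, with 1 fibroblast and 0 leukocyte falls. The thin filament fall, Tpm3, was called 0 times under RLE and upper-quartile scaling, that filter, the block, the compared libraries alone, DESeq2 and the summed myoblast libraries. The compared libraries alone gave 0 adipocyte rises, 3 endothelial rises and 384 genes with the more positive change, and DESeq2 gave 1116. Summing both myoblast libraries as 1, chosen after seeing the data, gave 0 leukocyte falls, 201 more positive and 407 more negative changes. Leaving out 1 library gave 184 to 583 more positive and 255 to 580 more negative changes, 0 to 1 adipocyte rises, 0 to 1 leukocyte falls, 0 to 1 thin filament falls and 7 to 10 interferon rises. An arm with 1 library is assumed to vary like the others.

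Deviations of same-numbered GFP-line myoblast and myotube libraries correlated at -0.0059 and -0.0875. The deviations of 2 myoblast libraries mirror each other, so these values cannot decide whether replicate numbers pair the samples. Pairing of same-numbered libraries across the lines was not tested. With the replicate block 6545 genes rose and 6312 fell, 1294 had the more positive change in the GFP line, and 1 junction gene and 1 energy gene fell. The block gave 2264 differences between lines, against 1345 without it. A myoblast group of 2 libraries limits the precision of every difference.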

Other observations

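Gene families were grouped by the start of their symbols after the values were seen, so their counts are descriptions, to be read against the 39.8% of all genes that rose and the 37.9% that fell. Of 77 genes of cytoplasmic ribosomal proteins and their close paralogs (Rpl, Rplp and Rps symbols, without the S6 kinases and Rps19bp1), 76 fell in GFP-line myotubes, with a median of -0.91 log2. The other, Rpl3l, was at 1.39 log2 and did not pass. Mitochondrial ribosomal protein genes fell in 60 of 73 cases (median -0.47), and genes with Eif symbols, mostly translation initiation factors, in 34 of 44 (median -0.56) once the Eif2ak kinases, the Eif4e-binding proteins and Eif4enif1 were left out. Genes with Kcn symbols, potassium channel subunits and their partners, rose in 45 of 69 cases and fell in 13 (median 1.29), with Kcnc4 at 6.16 and Kcnj11, a subunit of the ATP-sensitive channel, at 5.26 log2. Kelch-like genes (Klhl), adaptors of ubiquitin ligases, rose in 22 of 35 cases (median 0.98), among them Klhl41 (6.65), which stabilises sarcomere proteins, and Klhl31 (4.47). Asb genes, a further family of such adaptors, rose in 12 of 16 (median 1.24), led by Asb11 (5.24) and Asb15 (5.05). A gene could be tested through reads in 1 state alone, which lets in genes near 0 in myoblasts, and Kcnc4 was under 0.5 CPM there. The family counts were not repeated with the filter of 5 CPM.

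Kinesin genes numbered 17 up and 16 down of 38, near the shares over all genes. Mitotic kinesins such as Kif2c (-5.46), Kif23 (-5.00) and Kif22 (-4.72) fell, while the transport motors Kif5b (1.20) and Kif1b (1.14) rose and Kif5c (-0.44) did not. Hox genes numbered 7 up and 8 down of 24, which is no more than those shares, and the highest 3 values were of the D cluster: Hoxd8, with 0 myoblast reads, Hoxd3 (5.95) and Hoxd9 (4.01). Genes with Psma to Psmd symbols, proteasome subunits and assembly factors, rose in 7 and fell in 18 of 38 (median -0.16).

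A level under 0.5 CPM in both myoblast libraries and above 10 CPM in every myotube library was seen in 47 genes, among them Myot, Cox8b, Gdf5, Kcnc4, Fgf9, Wif1, Axin2 and Wnt10a. The last 3 belong to the Wnt pathway, as an inhibitor, a feedback regulator and a ligand. The reverse pattern was found in 0 genes.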
